A study of Mus musculus with 19 samples.

Results

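Hepatocytes labelled as derived from the DR, an abbreviation that the labels do not spell out, were compared with native hepatocytes of the same kind of chronically injured mouse liver. The comparison took every sample labelled GREEN (5 DR-derived samples) or RED (5 native, tdTomato-labelled samples), 10 of the 15 samples in the study, across all genes of the deposited tables. The other 5 samples were native hepatocytes of healthy liver (CTL) and are given as a background. All 3 groups carried the same genotype, OPN-CreERT2;Rosa26R-mT/mG. In this genotype the osteopontin promoter drives a tamoxifen-activated Cre recombinase, and Cre switches the mT/mG reporter of a cell and its descendants from membrane tdTomato to membrane green fluorescent protein. The sources used here do not give the agent that injured the liver, the age and sex of the animals or the sorting gates, and no label says whether animals were pooled.

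Each library was made from 150 ng of total RNA. RED 1, RED 5, GREEN 4 and GREEN 5 were taken from experiment 1, prepared with a poly(A) kit (TruSeq Stranded mRNA). RED 2, RED 3, RED 4, GREEN 1, GREEN 2 and GREEN 3 were taken from experiment 2, prepared after removal of ribosomal RNA (KAPA RNA HyperPrep with RiboErase kit). RED 2, RED 3 and RED 4 also had a library in experiment 1, which entered only as an alternative or a pair partner. Total estimated counts ran from 26163553 to 42354956 over the 10 libraries, and 16387 of 35274 genes had enough counts to be tested.

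Bile duct epithelial cells, or cholangiocytes, line the ducts that carry bile out of the liver and hold keratins, claudins, ion channels and a primary cilium that hepatocytes lack or hold at low levels. Osteopontin, encoded by Spp1, is made by bile duct cells. Hepatocytes make most plasma proteins and carry out urea synthesis, detoxification and bile acid synthesis. In an injured liver, duct cells can multiply into the lobule, and Notch, Hippo/YAP, TGF-beta and Wnt signals are studied there for their part in deciding between duct and hepatocyte fates.

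The labelled cell type was checked first against its defining markers. Levels are in CPM, the estimated count of a gene per 1000000 counts of a library after scaling. Values of 5 samples are listed in the order of samples 1 to 5 of the group. Albumin (Alb) was the leading example, with 78580, 46150, 68530, 58490 and 75700 CPM in RED and 36890, 55740, 27050, 26440 and 25220 CPM in GREEN, beside a CTL mean of 92660 ± 25860 CPM (SD, n = 5). Transthyretin (Ttr), a plasma carrier protein, had 5467, 3505, 5208, 3670 and 4032 CPM in RED and 2997, 4361, 1964, 1674 and 1940 CPM in GREEN. Ttr was thus at 1674 CPM or more and Alb at 25220 CPM or more in all 10 libraries, and the ranges of the groups overlapped for both. The mean log2 CPM of 33 mature hepatocyte markers was 11.2 to 11.9 in the RED samples and 11.2, 10.9, 10.1, 9.58 and 10.3 in GREEN 1 to GREEN 5. The same mean over 28 bile duct markers was 1.26 to 2.09 in RED and 4.07, 4.62, 6.27, 6.77 and 6.30 in GREEN 1 to GREEN 5. GREEN samples thus held hepatocyte RNA at high levels, and their mean over bile duct markers was above that of every RED sample. Summed CPM, which weights abundant genes, overlapped for the bile duct markers, at 3583 to 7708 in RED, 4401 to 13180 in GREEN and 4156 to 9751 in CTL. Of this list, Krt19, Epcam and Spp1 had mean CPM of 0.488, 0.445 and 154 in RED and 0.0114, 0.117 and 85.75 in CTL. In GREEN they had 54.9, 77.8 and 2868. The sums in RED and CTL thus came mostly from other members of the list and give no measure of these 3 genes. By the mean, GREEN 3, GREEN 4 and GREEN 5 stood apart from GREEN 1 and GREEN 2 on both lists. In bulk RNA, fewer cells of a type and less RNA of that type per cell cannot be told apart.

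**Figure D1:**
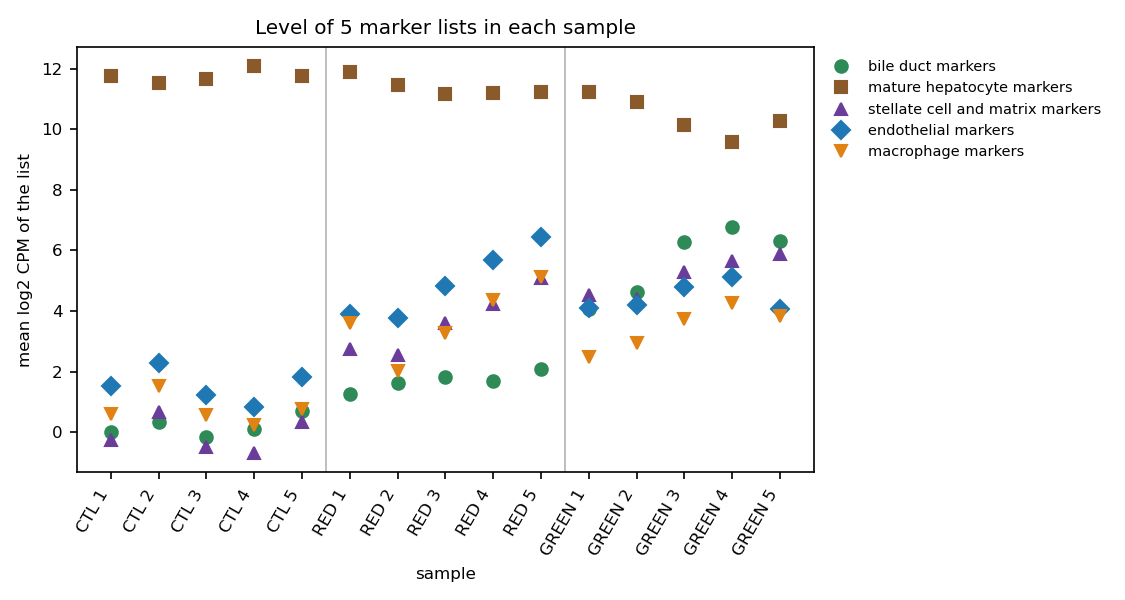
Mean log2 CPM (vertical axis) of 5 lists of cell type markers in each of the 15 samples (horizontal axis), by list. Bile duct markers are at 1.26 to 2.09 in RED and 4.07 to 6.77 in GREEN, and mature hepatocyte markers are lowest in GREEN 3, GREEN 4 and GREEN 5.

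Other features of single libraries touch the results. The factors that scale libraries to a common level (TMM) were 1.14 to 1.49 in GREEN and 0.789 to 1.08 in RED, so that scaling by library totals alone moved the median over all genes tested (log2 fold change) from -0.02 to 0.42. Equal numbers in the 16w library codes paired RED 2 with GREEN 1, RED 3 with GREEN 2 and RED 4 with GREEN 3 in experiment 2, and the experiment 1 library of RED 4 with GREEN 4 and RED 5 with GREEN 5 in experiment 1. GREEN 3 and GREEN 4 both had the code 16w4Green. Their expression differed with an SD of 0.494 on the log2 scale after removal of the kit difference, against 0.165 to 0.265 between the libraries of a sample made in both experiments 0.385 to 0.761 between different RED samples and 0.535 to 0.971 between the other 5 pairs of GREEN samples across the experiments. GREEN 3 and GREEN 4 were thus the closest of 6 such GREEN pairs and less alike than repeated libraries of 1 sample. They were kept as 2 samples, as the labels give them, and no source says whether they came from 1 animal. Summed RNA of 4 Y-linked genes was 155.0 CPM in RED 5 and 2.80 in GREEN 5, so these libraries, which share the code number 5, differed in it. Over all 10 libraries, RED 4, RED 5, GREEN 3 and GREEN 4 had Y-linked RNA at 110.5 CPM or more and the other 6 at 16.4 CPM or less. The Y-linked helicase gene Ddx3y, for example, had 0.127, 0.415, 0.263, 72.4 and 68.6 CPM in RED and 0.186, 0.143, 55.5, 48.4 and 0.0922 CPM in GREEN.

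Of 16387 genes, 2114 (12.9%) passed an adjusted p of 0.05 (edgeR quasi-likelihood test with Benjamini-Hochberg adjustment, which holds for every adjusted p given here without another tool's name). In GREEN, 1586 (9.68%) were higher and 528 (3.22%) were lower than in RED. The changes differed in size by direction. The median log2 fold change was 2.04 among the genes that rose, from a median RED level of 1.57 CPM, and 677 of them had a RED mean below 1 CPM. Among the genes that fell, the median was -0.62, at a median RED level of 73.0 CPM, and 33 of the 528 had a log2 change larger than 1 in size. GREEN samples were all above all RED samples in CPM for 1092 genes (6.66%) and all below for 368 (2.25%). Scaled by library totals, 4289 genes were higher and 40 lower, so the split between the directions depended on the scaling. Experiment 1 alone, with all its libraries (RED 1 to RED 5, GREEN 4, GREEN 5 and CTL 3 to CTL 5), gave 3062 higher and 2289 lower genes. Experiment 2 alone gave 76 and 1. RED 2, RED 3 and RED 4 thus entered both of these fits, each with the library of that experiment. The test of whether the difference itself varied with the experiment passed for 0 genes in edgeR, and 1420 had an unadjusted p under 0.05 (only edgeR was run for it).

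The counts rested on a few samples. With 1 sample left out, they fell to 775 higher and 91 lower without GREEN 3, 844 and 60 without GREEN 4, 871 and 41 without GREEN 5, and 841 and 55 without RED 1. Decreases also dropped to 217 without RED 5, 340 without RED 3 and 254 without CTL 5, and rose to 995 without GREEN 2 and 1338 (with 2177 increases) without GREEN 1. With GREEN 4 and GREEN 5 both left out, 268 genes were higher and 0 lower in edgeR, the tool run for it (1448 at an unadjusted p under 0.05), and with GREEN 3 left out too, 51 were higher and 1 lower. With equal code numbers of experiment 2 as a block (the code block), 1813 were higher and 967 lower. Of 125 genes that rose and are named in the text, 88 kept the call whichever library was left out, and of 62 that fell, 4 did (Ctsh, Masp1, Slc40a1 and Smyd1). This covers the omission of single libraries only. Smyd1, for example, lost the call in 8 alternatives, among them CTL left out and experiment 2 alone.

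**Figure D2:**
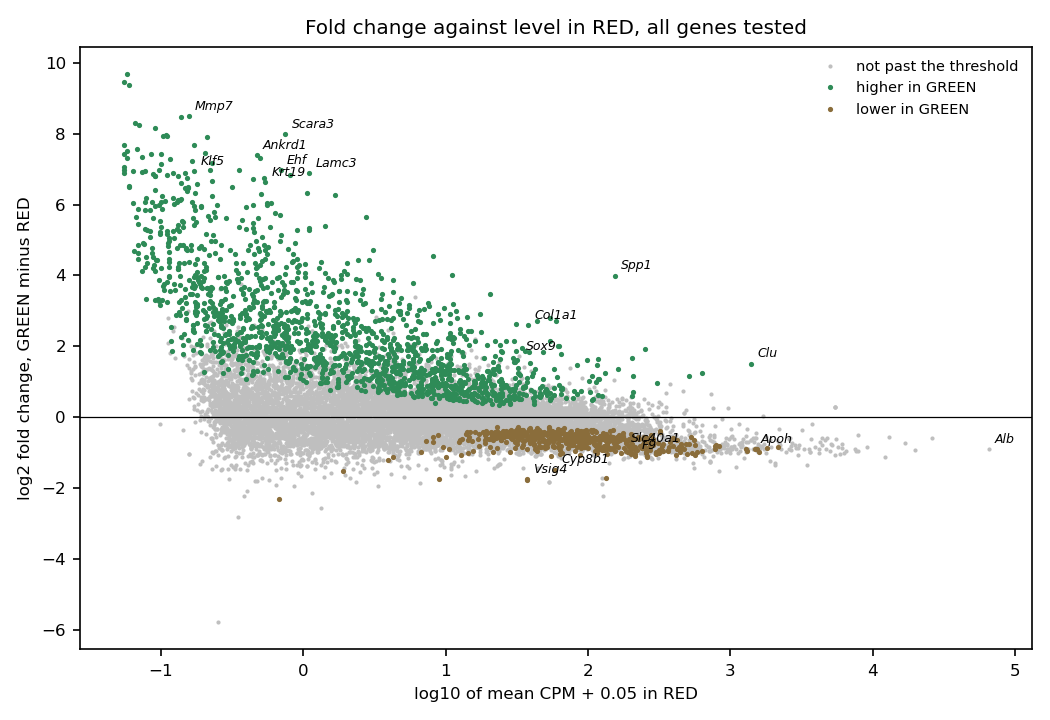
Log2 fold change of GREEN minus RED (vertical axis) against the log10 of the mean RED CPM + 0.05 (horizontal axis) for all genes tested, coloured by call. Genes that rose lie mostly at low RED levels, with a median of 1.57 CPM, and genes that fell lie mostly between log2 -0.81 and -0.50 (the quartiles) at a median RED level of 73.0 CPM.

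Among protein-coding genes with at least 2 CPM on average that rose and were higher in GREEN in all 5 within-experiment pairs of equal code number (1101 genes), the 12 with the largest fold changes were BC067074, Pof1b, Gal3st2, Mmp7, Msmp, Wnt7b, 2010300C02Rik, Cldn8, Scara3, Ugt8a, Esrp1 and Kcnk1. Scara3 (a member of the scavenger receptor family, ENSMUSG00000034463.4, chromosome 14, 65919394 to 65953935) had 0.127, 0.234, 0.671, 0.549 and 1.91 CPM in RED and 27.8, 60.4, 210.2, 428 and 279 CPM in GREEN (log2 fold change 7.98 ± 0.73, adjusted p = 7.55e-05). Mmp7, the secreted protease matrilysin, had 0, 0, 0, 0.143 and 0.389 CPM in RED and 3.93, 5.61, 61.3, 94.0 and 24.6 CPM in GREEN (log2 fold change 8.501 ± 1.23, adjusted p = 0.00204). Every GREEN sample was above every RED sample for both genes, and GREEN 1 was the lowest GREEN sample. Esrp1, which directs epithelial splicing, had 0, 0, 0.0718, 0 and 0.233 CPM in RED and 2.73, 4.92, 19.7, 25.4 and 22.6 CPM in GREEN (log2 fold change 7.95 ± 0.84, adjusted p = 0.000114).

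Several of these genes were nearly unread in RED. Pof1b, which encodes an actin-binding epithelial protein, had 1 estimated count in the 5 RED libraries together and 2017 in GREEN, a ratio of 1408 (counting interval 252.3 to 55620). BC067074 had 1 and 2045 counts, a ratio of 1427 (counting interval 255.8 to 56390), and Gal3st2, a sulfotransferase of galactose residues, had 2 and 2832, a ratio of 988.1 (counting interval 273.3 to 8163). Wnt7b, a secreted Wnt ligand, had 2 and 1235, a ratio of 430.9 (counting interval 119.0 to 3562), and 2010300C02Rik had 3 and 1733, a ratio of 403.1 (counting interval 137.7 to 1957). These intervals have a 95% level and cover counting error only. The fitted log2 fold changes of such genes depend on the prior count and are no bounds. The remaining genes of the 12 had a few more RED counts: Ugt8a, the galactosyltransferase of ceramide, had 7.97 ± 0.79, Kcnk1, a potassium leak channel, 7.94 ± 0.94, Msmp, a small secreted protein, 8.46 ± 0.64, and Cldn8, a claudin, 8.17 ± 0.85 (log2 fold change ± SE).

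Most bile duct markers rose. Of 28 tested members, 20 rose (71.4%, beside 9.68% of all genes) and 0 fell, with a median log2 fold change of 4.36, beside -0.02 for all genes. Krt19 (ENSMUSG00000020911.14, chromosome 11, 100140810 to 100148665), the keratin used to mark bile ducts, had 0.297, 0.363, 0.551, 0.334 and 0.895 CPM in RED and 8.33, 14.04, 74.0, 98.6 and 79.7 CPM in GREEN (log2 fold change 6.63 ± 0.63, adjusted p = 7.55e-05). Muc1, a mucin of the apical membrane, had 0.297, 0.260, 0.407, 0.358 and 0.661 CPM in RED and 7.80, 15.4, 64.4, 77.7 and 70.9 CPM in GREEN (log2 fold change 6.73 ± 0.59, adjusted p = 7.25e-05). Epcam, an epithelial adhesion protein, had 0.297, 0.130, 0.407, 0.693 and 0.7003 CPM in RED and 11.8, 26.6, 109.8, 153 and 87.5 CPM in GREEN (log2 fold change 7.33 ± 0.93, adjusted p = 0.000347). The groups did not overlap for these 3 genes, and the within-pair differences of Krt19 were 4.32, 4.51, 7.4999, 7.76 and 6.32 (log2) in the order GREEN 1, 2, 3, 4 and 5. Spp1 itself, whose promoter drives the Cre of this genotype, had 38.4, 109, 43.4, 199 and 380.3 CPM in RED and 413, 534, 2351, 7420 and 3622 CPM in GREEN (log2 fold change 3.99 ± 1.22, adjusted p = 0.0461). The groups did not overlap, RED spanned 38.4 to 380.3 CPM, and the adjusted p of Spp1 was 0.0554 with the code block and 0.0975 in limma-voom. Sox9, a transcription factor of duct cells, had 34.7, 18.8, 24.8, 51.1 and 35.3 CPM in RED and 41.4, 82.8, 168, 128 and 119 CPM in GREEN and did not pass (log2 fold change 1.72 ± 0.62, adjusted p = 0.0779; with the code block, 0.0418). Spp1 lost the call without any 1 RED sample, GREEN 3, GREEN 4, GREEN 5, CTL 1 or CTL 4 (highest adjusted p 0.12).

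**Figure D3:**
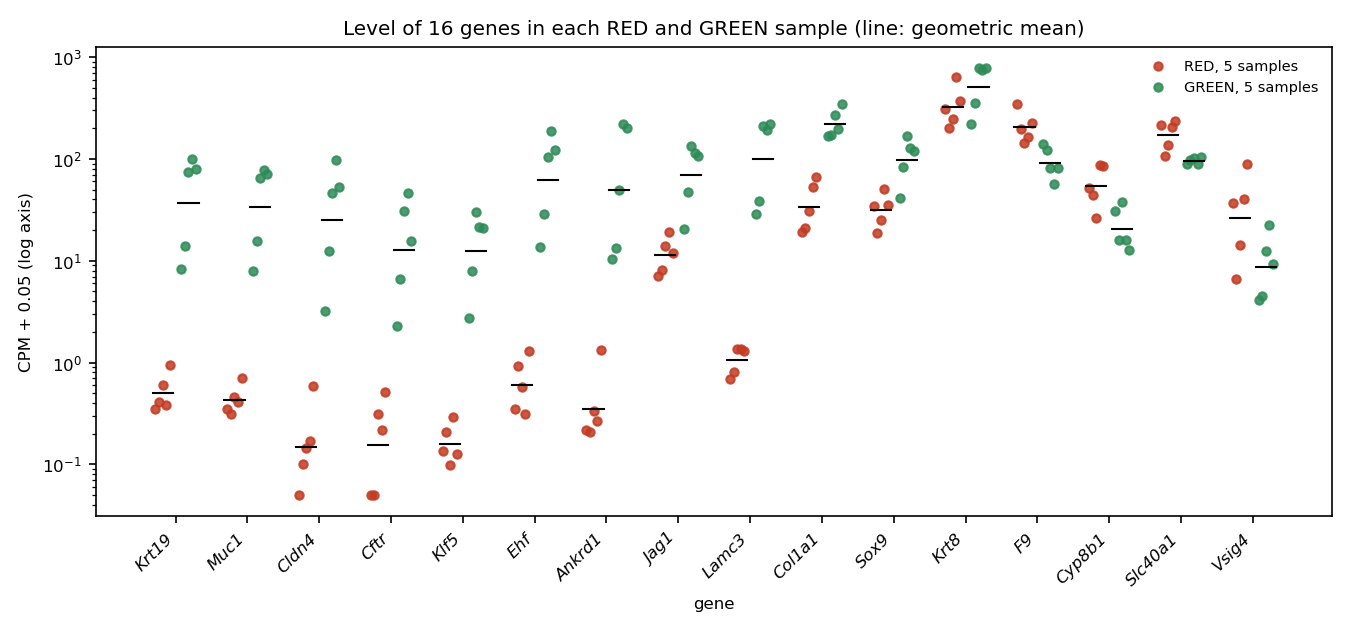
CPM + 0.05 on a log axis (vertical) for 16 genes (horizontal axis) in each RED and GREEN sample, with a line at the geometric mean of 5 samples. For Krt19, Muc1 and Lamc3 every GREEN sample lies far above every RED sample, while Krt8 and Sox9 overlap and Slc40a1 and F9 are lower in GREEN.

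Keratins differed by gene. Of 9 tested keratin genes, 6 rose (66.7%, beside 9.68% of all genes) and 0 fell. The 6 were Krt17, Krt19, Krt23, Krt7, Krt20 and Krt80. Krt7, a duct keratin, had 0.0849, 1.97, 0.790, 0.526 and 0.778 CPM in RED and 5.25, 6.94, 36.2, 46.4 and 26.6 CPM in GREEN (log2 fold change 4.92 ± 0.78, adjusted p = 0.00131). Krt23 had 0.552, 1.402, 0.575, 0.358 and 0.311 CPM in RED and 6.91, 12.4, 29.1, 89.3 and 59.7 CPM in GREEN (log2 fold change 5.69 ± 0.98, adjusted p = 0.00221). Krt8 and Krt18, which hepatocytes and duct cells both make, had log2 fold changes of 0.67 ± 0.39 (adjusted p = 0.262) and 0.42 ± 0.35 (adjusted p = 0.45) and did not pass. Krt17, a keratin of basal and regenerating epithelia, had 0, 0, 0.0239, 0 and 0.389 CPM in RED and 0.434, 2.27, 8.38, 19.9 and 7.52 CPM in GREEN (log2 fold change 6.82 ± 1.04, adjusted p = 0.00107). Krt20 and Krt80 each lost the call without 1 or more of RED 1, RED 2, RED 4, RED 5, GREEN 3 and GREEN 5 (highest adjusted p by gene 0.0587 to 0.0961).

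Genes of tight junctions changed in both directions. Of 26 tested members, 13 rose and 2 fell, with a median of 0.85. Cldn4, a claudin of many epithelia, had 0, 0.0519, 0.0958, 0.119 and 0.545 CPM in RED and 3.14, 12.4, 46.6, 97.4 and 53.01 CPM in GREEN (log2 fold change 7.92 ± 0.81, adjusted p = 9.36e-05). Cldn7 had 0.0849, 0.104, 0.311, 0.119 and 0.272 CPM in RED and 4.198, 10.1, 47.9, 46.9 and 31.1 CPM in GREEN (log2 fold change 7.17 ± 0.74, adjusted p = 9.36e-05). Cldn6 and Cldn10 also rose. The 2 genes that fell were Cldn1, a claudin that hepatocytes also make, with 131, 154, 84.1, 89.0 and 122 CPM in RED and 113, 76.6, 43.5, 30.6 and 39.7 CPM in GREEN (log2 fold change -1.01 ± 0.29, adjusted p = 0.0378), and Cldn12, with a log2 fold change of -0.45 ± 0.14 (adjusted p = 0.0458). Cldn1 and Cldn12 had CTL means of 130.1 ± 17.1 CPM (SD, n = 5) and 82.4 ± 10.02 CPM (SD, n = 5), and Cldn4 had a CTL mean of 0.0114 ± 0.0255 CPM (SD, n = 5). Leaving out 1 or more of RED 1, RED 2, RED 5, GREEN 3, GREEN 4, GREEN 5, CTL 1 and CTL 5, singly, ended the calls of Cldn1 and Cldn12 (highest adjusted p by gene 0.105 to 0.11).

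Channels and transporters of the duct epithelium, which add chloride, bicarbonate and water to bile, were higher. Of 23 tested genes, 15 rose (65.2%, beside 9.68% of all genes) and 0 fell (median 1.46). Cftr, the chloride channel regulated by cyclic AMP, had 0, 0, 0.263, 0.167 and 0.467 CPM in RED and 2.23, 6.51, 30.8, 45.7 and 15.6 CPM in GREEN (log2 fold change 6.68 ± 1.05, adjusted p = 0.00322). Aqp5, a water channel, had 0, 0, 0.0479, 0.0717 and 0 CPM in RED and 0.786, 1.59, 12.9, 4.47 and 4.40 CPM in GREEN (log2 fold change 7.36 ± 1.08, adjusted p = 0.00223). In both genes every GREEN sample was above every RED sample, with GREEN 1 the lowest. Sctr, the secretin receptor, Ano1, a calcium-activated chloride channel, and Kcnn4, a calcium-activated potassium channel, rose as well. The transport list had 9 genes higher without RED 1, GREEN 3 or GREEN 4.

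The primary cilium, a sensory rod on the apical side of duct cells, had 23 of 39 tested genes higher and 0 lower. The share higher was 59.0%, beside 9.68% of all genes, and the median was 1.01. Dcdc2a, a ciliary microtubule-binding protein, had 1.4, 1.48, 3.14, 3.61 and 5.64 CPM in RED and 16.3, 26.2, 82.4, 202 and 131 CPM in GREEN (log2 fold change 4.72 ± 0.79, adjusted p = 0.0018). Foxj1, a transcription factor of ciliated cells, had 0, 0.208, 0.168, 0.263 and 0.545 CPM in RED and 2.34, 4.02, 16.1, 28.2 and 18.98 CPM in GREEN (log2 fold change 5.63 ± 0.73, adjusted p = 0.000416). Pkhd1 and Pkd2, whose human counterparts are mutated in polycystic kidney and liver disease, and 6 intraflagellar transport genes (Ift57, Ift81, Ift122, Ift43, Ift74 and Ift172) were among the genes that rose. The cilium list had 12 genes higher without RED 1, 13 without GREEN 4 and 14 without GREEN 3. It kept 2 genes past the threshold when both experiment 1 samples of GREEN (GREEN 4 and GREEN 5) were left out, and 1 when GREEN 3 was dropped too. Ift172 had an adjusted p of 0.057 with the code block. The same omissions left 13 and 5 of the 28 bile duct markers, 3 and 1 of the 23 transport genes and 7 and 2 of the tight junction genes that rose. The calls of Ift43, Ift74 and Ift172 each rested on 1 or more of the 5 RED samples, GREEN 3, GREEN 4, GREEN 5 and the 5 CTL samples, without which the highest adjusted p by gene was 0.0621 to 0.156.

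Transcription factors of the duct lineage had 11 of 23 genes higher (47.8%, beside 9.68% of all genes) and 0 lower (median 1.39). Ehf, an ETS-family factor of epithelia, had 0.297, 0.883, 0.527, 0.263 and 1.25 CPM in RED and 13.5, 28.7, 104, 187 and 123 CPM in GREEN (log2 fold change 6.98 ± 0.73, adjusted p = 0.000106). Klf5, a Krüppel-like factor, had 0.0849, 0.156, 0.0479, 0.239 and 0.0778 CPM in RED and 2.71, 7.92, 29.9, 21.6 and 21.0 CPM in GREEN (log2 fold change 6.94 ± 0.68, adjusted p = 7.55e-05). In both genes every GREEN sample was above every RED sample. Grhl2, Sox4, Glis3, Hey1, Hes1, Tead1 and Tead2 also rose. This list had 7 genes higher without GREEN 3. Without at least 1 of the 5 RED samples, GREEN 3, GREEN 4, GREEN 5 and CTL 1, left out singly, Hey1, Hes1, Tead1 and Tead2 each missed the threshold (highest adjusted p by gene 0.053 to 0.112).

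Factors of the hepatocyte lineage had 1 gene higher and 1 lower among 31 (3.23% each, beside 9.68% and 3.22% of all genes). Gata6, a GATA factor of early liver development, had 9.72, 10.8, 14.5, 10.9 and 8.83 CPM in RED and 17.2, 27.4, 48.4, 62.4 and 50.5 CPM in GREEN (log2 fold change 1.86 ± 0.28, adjusted p = 0.000977). The nuclear receptor gene Nr1h3 (LXR-alpha) had 108, 66.6, 59.1, 53.9 and 87.2 CPM in RED and 60.6, 47.4, 29.9, 28.8 and 40.6 CPM in GREEN (log2 fold change -0.79 ± 0.23, adjusted p = 0.0394). Hnf4a, the nuclear receptor that maintains hepatocyte identity, had 778, 557, 591, 760.5 and 398 CPM in RED and 488, 501, 412, 149 and 264 CPM in GREEN and did not pass (log2 fold change -0.82 ± 0.28, adjusted p = 0.0701), and Cebpa had a log2 fold change of -0.68 ± 0.33 (adjusted p = 0.18). The median of this list was -0.42 (0.00 by library totals, where 6 members were higher and 0 lower). DESeq2 had 4 higher and 4 lower, and leaving out 1 library gave 1 to 3 higher and 0 to 10 lower, with 10 lower without GREEN 1. With the code block 5 members fell, among them Cebpa (adjusted p = 0.0347). Leaving out RED 1, RED 2, RED 3, RED 5, GREEN 3, GREEN 4, GREEN 5, CTL 1 or CTL 5 ended the call of Nr1h3 (highest adjusted p 0.105).

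Genes known as targets of YAP and TEAD, the transcriptional arm of the Hippo pathway, had 17 of 31 members higher and 0 lower (median 0.93). The share higher was 54.8%, beside 9.68% of all genes. Upstream sequences are printed here to show where the TEAD core motif GGAATG, or its reverse complement CATTCC, lies at 3 of the genes that rose, and where a motif read by HNF4, CAAAGTCCA, lies at a gene that fell (Cyp8b1). Each is the 250 bases before the RefSeq start in GRCm38.p6, written 5′ to 3′ on the gene's strand with the motif in capitals. The genes were chosen after their values were seen.
Ankrd1, chr19:36119845-36120094, minus strand: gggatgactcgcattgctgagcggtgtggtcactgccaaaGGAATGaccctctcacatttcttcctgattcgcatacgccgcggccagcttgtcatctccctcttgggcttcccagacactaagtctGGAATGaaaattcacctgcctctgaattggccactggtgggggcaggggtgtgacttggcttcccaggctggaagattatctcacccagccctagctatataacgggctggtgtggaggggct
Ccn1, chr3:145649986-145650235, minus strand: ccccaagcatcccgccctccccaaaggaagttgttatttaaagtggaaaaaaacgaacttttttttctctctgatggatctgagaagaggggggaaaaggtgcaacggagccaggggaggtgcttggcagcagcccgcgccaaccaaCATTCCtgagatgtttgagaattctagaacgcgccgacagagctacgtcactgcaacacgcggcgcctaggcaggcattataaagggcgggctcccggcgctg
Muc1, chr3:89228806-89229055, plus strand: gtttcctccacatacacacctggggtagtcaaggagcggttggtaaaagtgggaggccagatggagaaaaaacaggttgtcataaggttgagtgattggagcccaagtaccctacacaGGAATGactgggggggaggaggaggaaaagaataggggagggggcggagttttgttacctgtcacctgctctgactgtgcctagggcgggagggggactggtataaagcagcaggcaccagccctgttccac
Cyp8b1, chr9:121916306-121916555, minus strand: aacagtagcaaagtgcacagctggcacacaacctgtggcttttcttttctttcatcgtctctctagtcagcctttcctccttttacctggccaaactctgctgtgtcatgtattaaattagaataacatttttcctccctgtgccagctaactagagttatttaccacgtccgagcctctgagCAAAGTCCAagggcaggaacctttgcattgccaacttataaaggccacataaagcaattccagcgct
The Ankrd1 window held the motif at -210 and -123, counted from the start, the Ccn1 window at -103 and the Muc1 window at -132, and the Cyp8b1 window held the HNF4 motif at -67. Over both strands, GGAATG was found in 13.1% of the 11927 tested genes with such a window, in 15.5% of 1185 genes that rose, in 11.1% of 416 genes that fell and in 10 of 23 YAP and TEAD list members (43.5%). CAAAGTCCA was found in 0.511% of all windows, 0.422% of genes that rose (5 of 1185) and 1.20% of genes that fell (5 of 416, Cyp8b1 among them). Counts of 5 are too few to be read as a difference. The AP-1 motif TGANTCA was found in 6.20%, 6.50% and 6.01%. A match is a description of these letters and shows no binding.

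Ankrd1, a muscle and wound-response ankyrin protein, had 0.170, 0.156, 0.287, 0.215 and 1.28 CPM in RED and 10.4, 13.3, 49.5, 219 and 199.5 CPM in GREEN (log2 fold change 7.40 ± 0.61, adjusted p = 6.17e-05). The GREEN samples were all above the RED samples, with GREEN 4 and GREEN 5 the highest. Ccn2 (connective tissue growth factor) had 3.31, 2.13, 5.68, 19.5 and 10.1 CPM in RED and 26.6, 63.9, 272, 271 and 335 CPM in GREEN (log2 fold change 4.55 ± 0.84, adjusted p = 0.0034). Ccn1, a matrix-associated signalling protein, had 95.8, 39.2, 48.04, 40.3 and 73.3 CPM in RED and 83.9, 174, 418, 755 and 684 CPM in GREEN (log2 fold change 2.71 ± 0.49, adjusted p = 0.00311), and here GREEN 1 was within the range of RED. Both were named after their values were seen. Fjx1, a secreted protein, had 0, 0, 0.0718, 0.0956 and 0.0389 CPM in RED and 0.434, 1.23, 5.002, 6.50 and 3.73 CPM in GREEN (log2 fold change 5.96 ± 0.97, adjusted p = 0.00381). Tead1, Tead2, Tead3 and Tead4, the DNA-binding partners of YAP, all rose. The YAP and TEAD list had 9 genes higher without RED 1, GREEN 3, GREEN 4 or GREEN 5. With GREEN 4 and GREEN 5 left out, 2 of the 17 genes passed, and without GREEN 3 as well, 1. Each of Tead3 and Tead4 missed the threshold when at least 1 of the 5 RED samples, GREEN 3, GREEN 4, GREEN 5, CTL 1 and CTL 2 was left out (highest adjusted p by gene 0.105 to 0.136).

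Notch signalling, which directs duct formation, had 7 of 31 genes higher (22.6%, beside 9.68% of all genes) and 0 lower (median 0.31). Among ligands, Jag1 had 7.001, 8.07, 13.99, 19.2 and 11.9 CPM in RED and 20.6, 46.8, 132, 114 and 106 CPM in GREEN (log2 fold change 2.81 ± 0.50, adjusted p = 0.00275), and Jag2 also rose. Among targets, Hes1 and Hey1 rose. Dtx1, a ubiquitin ligase of the pathway and also a target, had 0.255, 1.38, 0.527, 0.621 and 0.350 CPM in RED and 2.44, 2.90, 12.8, 13.8 and 10.6 CPM in GREEN (log2 fold change 3.96 ± 0.80, adjusted p = 0.00633). For Jag1 and Dtx1 the groups did not overlap. The Notch list had 4 genes higher without GREEN 3, and 1 lower with the code block.

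In the TGF-beta and activin list 11 of 40 genes rose (27.5%, beside 9.68% of all genes) and 0 fell (median 0.33). The ligand gene Tgfb2 had 0.467, 0.779, 1.53, 2.17 and 4.202 CPM in RED and 3.62, 6.98, 19.3, 25.2 and 18.5 CPM in GREEN (log2 fold change 2.94 ± 0.59, adjusted p = 0.00633). Itgb8 and Itgb6 encode integrin chains that release TGF-beta from its latent complex. Itgb8 had 0.382, 0.260, 0.527, 1.05 and 0.7003 CPM in RED and 7.30, 11.7, 63.3, 35.0 and 46.4 CPM in GREEN (log2 fold change 5.76 ± 0.63, adjusted p = 0.000137). Itgb6 had 0.255, 0.779, 0.431, 0.215 and 0.350 CPM in RED and 2.52, 4.43, 15.7, 8.57 and 10.6 CPM in GREEN (log2 fold change 4.35 ± 0.55, adjusted p = 0.000345). GREEN was above RED throughout for these 2 integrin genes, while for Tgfb2 the lowest GREEN sample lay below the highest RED sample. The latent binding proteins Ltbp2 and Ltbp3 and the pseudoreceptor Bambi also rose. This list had 6 genes higher without GREEN 3 and 7 without RED 1, GREEN 4 or GREEN 5.

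Wnt signalling had 10 of 34 genes higher (29.4%, beside 9.68% of all genes) and 0 lower (median 0.30). The ligand Wnt7b had 0, 0, 0, 0 and 0.0778 CPM in RED and 0.579, 1.51, 8.84, 8.30 and 5.37 CPM in GREEN. Sfrp5, a secreted Wnt inhibitor, was low in level, with 0.0424, 0.0260, 0.0239, 0.0478 and 0 CPM in RED and 0.228, 0.510, 0.664, 1.66 and 1.34 CPM in GREEN (log2 fold change 4.51 ± 0.64, adjusted p = 0.000711). Wnt4, Wnt5a and the receptors Fzd1, Fzd2 and Fzd5 rose too. Of 14 Hedgehog genes 6 rose (42.9%, beside 9.68% of all genes) and 0 fell (median 0.86). Those that rose were the transcription factors Gli1 and Gli2, the co-receptors Boc and Cdon, the transducer Smo and the inhibitor Sufu (adjusted p = 0.0518 with the code block). Boc had 0.170, 0.286, 0.311, 0.502 and 0.739 CPM in RED and 1.36, 2.10, 5.37, 4.73 and 7.82 CPM in GREEN (log2 fold change 3.30 ± 0.54, adjusted p = 0.00383). Gli2 had 0, 0, 0, 0.119 and 0 CPM in RED and 0.372, 0.388, 0.572, 0.670 and 0.761 CPM in GREEN (log2 fold change 4.12 ± 0.89, adjusted p = 0.0169), levels that are low in every sample. Fzd5, Gli2 and Sufu each lost the call without 1 or more of RED 1, RED 2, RED 4, RED 5, GREEN 3, GREEN 4, GREEN 5, CTL 1, CTL 2 and CTL 5 (highest adjusted p by gene 0.0521 to 0.14).

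Signals of growth factors and inflammation followed. Among ErbB, Met and FGF receptors and ligands, 7 of 36 rose (19.4%, beside 9.68% of all genes) and 0 fell (median 0.09). The receptor Erbb2 had 0.764, 1.01, 1.80, 2.84 and 3.50 CPM in RED and 5.75, 8.06, 27.3, 29.2 and 26.5 CPM in GREEN (log2 fold change 3.24 ± 0.61, adjusted p = 0.00391). The ligand Hbegf had 4.67, 2.96, 2.78, 6.59 and 20.7 CPM in RED and 8.56, 26.9, 71.4, 126 and 128 CPM in GREEN (log2 fold change 3.22 ± 0.65, adjusted p = 0.00617). GREEN exceeded RED in every sample for Erbb2, and GREEN 1 fell within the RED range for Hbegf. In the TWEAK, TNF and NF-kB list 5 of 33 rose (15.2%, beside 9.68% of all genes) and 0 fell (median 0.36). Ltb, a membrane-bound TNF-family ligand also listed as a lymphocyte marker, had 0.0424, 0.0260, 0.0958, 0.0956 and 0.350 CPM in RED and 1.01, 3.04, 9.58, 18 and 8.76 CPM in GREEN (log2 fold change 5.96 ± 0.72, adjusted p = 0.000244). The receptor Tnfrsf19 had 3.01, 2.75, 5.80, 2.25 and 3.66 CPM in RED and 8.91, 15.5, 39.6, 74.0 and 55.2 CPM in GREEN (log2 fold change 3.33 ± 0.60, adjusted p = 0.00315). The non-canonical subunits Relb and Nfkb2 rose. The receptor and ligand list had 4 genes higher without GREEN 3, and 3 lower with the code block. The NF-kB list had 8 genes higher without GREEN 1, and 9 higher with the code block. Without RED 1, RED 2, RED 3, RED 5, GREEN 3, GREEN 4, GREEN 5, CTL 1, CTL 2 or CTL 5, Relb missed the threshold (highest adjusted p 0.145).

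Laminins, integrins and other basement membrane genes had 16 of 41 members higher (39.0%, beside 9.68% of all genes) and 0 lower (median 1.00). Lamc3, a laminin chain, had 0.636, 0.753, 1.32, 1.31 and 1.25 CPM in RED and 28.4, 38.7, 209, 191 and 219 CPM in GREEN (log2 fold change 6.88 ± 0.61, adjusted p = 7.25e-05). For Lamc3 the lowest GREEN sample was several times the highest RED sample. Type IV collagen chains rose in part (Col4a3, Col4a4, Col4a5 and Col4a6), as did the integrin genes Itga2, Itga3, Itgav and Itgb4. Leaving out 1 or more of the 5 RED samples, GREEN 3, GREEN 4, GREEN 5 and the 5 CTL samples, singly, ended the calls of Itga2 and Itgav (highest adjusted p by gene 0.0739 to 0.149).

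Proteases and their inhibitors had 12 of 35 genes higher and 2 lower (34.3% and 5.71%, beside 9.68% and 3.22% of all genes, median 0.62). Spint1, an epithelial inhibitor of serine proteases, had 0.0424, 0.0260, 0.168, 0.0956 and 0.272 CPM in RED and 4.71, 8.70, 38.4, 56.7 and 32.2 CPM in GREEN (log2 fold change 7.69 ± 0.71, adjusted p = 7.55e-05). Its target St14 (matriptase) rose too. The protease list had 1 gene lower without RED 5, GREEN 3, GREEN 4 or GREEN 5 and 4 without GREEN 1 or GREEN 2. The cathepsin gene Ctsh (-0.67 ± 0.16, adjusted p = 0.016) and the membrane protease gene Adam9 (-0.46 ± 0.12, adjusted p = 0.0243) fell. In the list of EMT factors, cadherins and cytoskeleton, 9 of 40 rose and 1 fell (median 0.33), or 2 fell with the code block. The shares in the main fit were 22.5% and 2.5%, beside 9.68% and 3.22% of all genes, so the share that fell was no larger than that of all genes. Vil1, the actin bundler of microvilli, had 0.0424, 0.104, 0.0718, 0.215 and 0.0778 CPM in RED and 1.18, 2.27, 16.9, 14.3 and 12.9 CPM in GREEN (log2 fold change 6.39 ± 0.79, adjusted p = 0.000274). The cadherin gene Cdh6 had 0.636, 0.649, 0.479, 0.478 and 0.272 CPM in RED and 6.68, 12.9, 53.2, 56.0 and 52.9 CPM in GREEN (log2 fold change 6.05 ± 0.58, adjusted p = 7.55e-05). Zeb1, a repressor of epithelial genes, was the gene that fell (-0.47 ± 0.14, adjusted p = 0.0412). Vim (vimentin) had a log2 fold change of 0.90 ± 0.47 and did not pass (adjusted p = 0.208). Annexins and S100 proteins had 7 of 21 higher (33.3%, beside 9.68% of all genes) and 0 lower (median 0.94). Of these, S100a6 had 0.340, 0.467, 0.695, 0.884 and 1.98 CPM in RED and 2.52, 5.80, 25.8, 20.6 and 22.1 CPM in GREEN (log2 fold change 4.11 ± 0.65, adjusted p = 0.00134). The annexin and S100 list had 2 genes higher without RED 1 or GREEN 3, 3 without GREEN 4 or GREEN 5 and 4 without RED 2 or RED 3. The calls of Adam9 and Zeb1 each rested on 1 or more of RED 1, RED 4, RED 5, GREEN 3, GREEN 4, GREEN 5 and CTL 5, without which the highest adjusted p by gene was 0.0689 to 0.116.

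Markers of stellate cells and fibrous matrix had 13 of 32 members higher (40.6%, beside 9.68% of all genes) and 0 lower (median 1.08). Col1a1, the main chain of type I collagen, had 19.2, 20.8, 30.9, 52.7 and 66.0 CPM in RED and 167, 173, 269, 195 and 345 CPM in GREEN (log2 fold change 2.59 ± 0.40, adjusted p = 0.00116). Fbln2, a matrix protein of elastic fibres and basement membranes, had 1.15, 1.25, 2.37, 2.82 and 6.07 CPM in RED and 12.8, 52.4, 193, 288 and 179.9 CPM in GREEN (log2 fold change 5.65 ± 0.78, adjusted p = 0.00061). Mfap4, a microfibril protein, had 0.594, 0.208, 0.263, 0.311 and 0.817 CPM in RED and 3.50, 4.63, 10.3, 16.2 and 26.6 CPM in GREEN (log2 fold change 4.70 ± 0.41, adjusted p = 7.25e-05). The 3 genes had no overlap between the groups. The matrix list had 6 genes higher without GREEN 3 or GREEN 5, 7 without RED 1 or GREEN 4 and 8 without RED 3. The pairs differed from those of the bile duct list: the median within-pair difference of the matrix list was largest in GREEN 1 against RED 2 (1.82) and was 0.48 to 1.16 in the other 4 pairs, whereas that of the bile duct list was smallest there (2.20, against 2.79 to 6.22). Summed over the list, matrix RNA was 531.1 to 3133 CPM in RED and 1510 to 4671 CPM in GREEN. The part that RNA of other cells had in these genes was not tested.

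By the same rule as above (516 genes lower in all 5 pairs), the 12 genes with the largest decreases began with the macrophage markers Vsig4, Timd4 and Cd5l and went on with Cyp8b1, Smyd1, Wfdc21, Sult5a1, Spata22, Ugt3a1, Ugt1a9, F9 and Sdr9c7. Cyp8b1 (ENSMUSG00000050445.4, chromosome 9, 121914356 to 121916305), the hydroxylase that directs bile acid synthesis towards cholic acid, had 51.5, 44.5, 26.4, 88.0 and 84.5 CPM in RED and 30.5, 15.8, 37.8, 16.1 and 12.8 CPM in GREEN (log2 fold change -1.48 ± 0.36, adjusted p = 0.019), beside 266 ± 88.0 CPM (SD, n = 5) in CTL. F9, coagulation factor IX, had 346, 196, 142, 164 and 226 CPM in RED and 140.0, 123, 80.5, 56.2 and 81.1 CPM in GREEN (log2 fold change -1.09 ± 0.30, adjusted p = 0.0327), beside 321 ± 111 CPM (SD, n = 5) in CTL. The groups did not overlap for F9 and overlapped for Cyp8b1. Smyd1, a histone methyltransferase best known from muscle, had 4.92, 2.34, 2.78, 4.01 and 5.37 CPM in RED and 1.84, 1.94, 1.99, 1.42 and 0.945 CPM in GREEN (log2 fold change -1.21 ± 0.28, adjusted p = 0.0144), with every GREEN sample below every RED sample. Spata22, a protein of meiotic recombination, also had no overlap (log2 fold change -1.11 ± 0.28, adjusted p = 0.0224). The secreted WAP-domain protein gene Wfdc21 had -1.14 ± 0.33, the sulfotransferase gene Sult5a1 -1.13 ± 0.31, the glucuronosyltransferase family genes Ugt3a1 -1.11 ± 0.32 and Ugt1a9 -1.09 ± 0.32, and the dehydrogenase gene Sdr9c7 -1.08 ± 0.34 (log2 fold change ± SE), the last with an adjusted p of 0.0592 under the code block. Ugt1a9 shares exons with its Ugt1a neighbours, so its estimated counts are uncertain. Without at least 1 of the 5 RED samples, the 5 GREEN samples, CTL 1, CTL 4 and CTL 5, left out singly, Vsig4, Timd4, Cd5l, Cyp8b1, Wfdc21, Sult5a1, Spata22, Ugt3a1, Ugt1a9, F9 and Sdr9c7 each missed the threshold (highest adjusted p by gene 0.0683 to 0.127).

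The 33 mature hepatocyte markers all had log2 fold changes below 0 (median -0.90), and 1 of them, Apoh, passed (3.03%, beside 3.22% of all genes), or 2 with the code block. In DESeq2 18 of them fell and in limma-voom 17, and with 1 library left out the count ran from 0 to 11, with 11 without GREEN 1 and 9 without GREEN 2. Apoh (beta-2-glycoprotein I) had 2213, 1349, 1234, 1269 and 1387 CPM in RED and 1134, 1017, 631, 463 and 701 CPM in GREEN (log2 fold change -0.90 ± 0.27, adjusted p = 0.0461), without overlap. Within the pairs, the list's median was -0.24 for GREEN 1, -0.28 for GREEN 2, -1.10 for GREEN 3, -1.99 for GREEN 4 and -0.91 for GREEN 5. Alb had -0.91 ± 0.58 (adjusted p = 0.309), Ttr -0.79 ± 0.30 (adjusted p = 0.0953) and Apoa1 -0.89 ± 0.37 (adjusted p = 0.122), and none of these 3 passed in edgeR. In DESeq2 their adjusted p were 0.00478, 0.0123 and 0.0316, and in limma-voom Alb (0.0468) and Ttr (0.042) passed. By library totals the median of the list was -0.50, and none of its members passed. Apoh lost the call without any 1 RED sample, GREEN 3, GREEN 4, GREEN 5 or any 1 CTL sample (highest adjusted p 0.114).

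**Figure D4:**
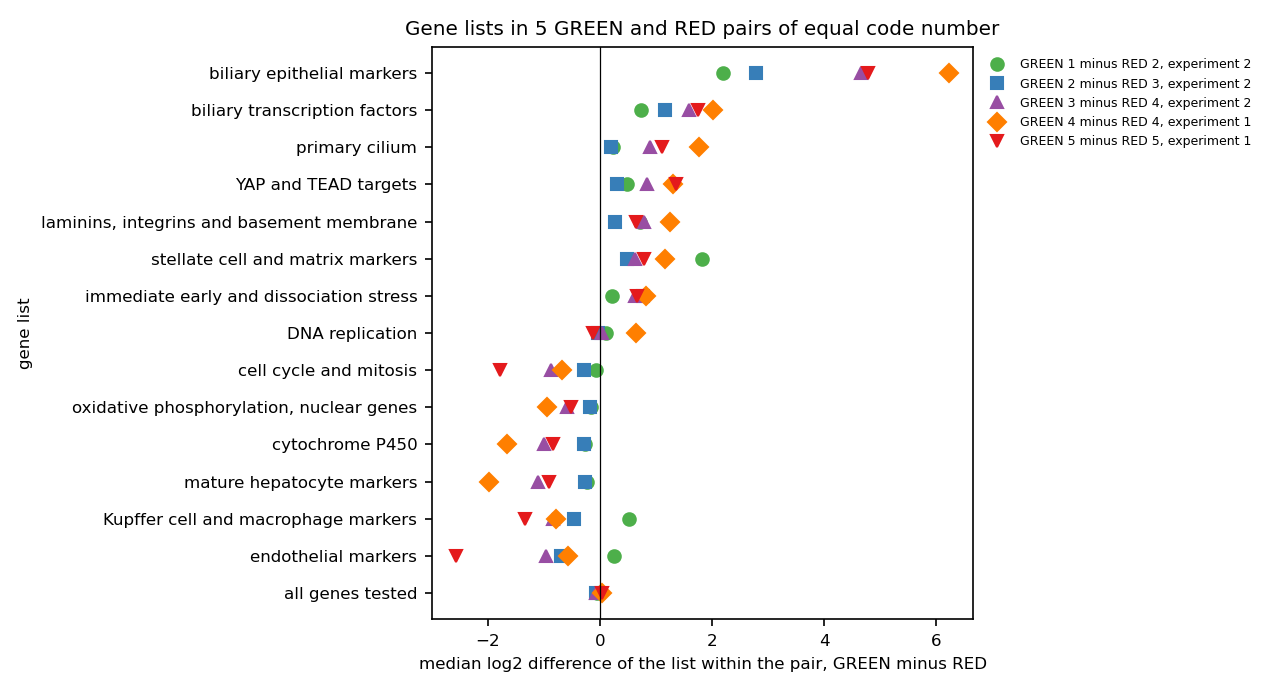
Median within-pair log2 difference of GREEN minus RED (horizontal axis) for 14 gene lists and all genes tested (vertical axis), with a marker for each of 5 within-experiment pairs of equal code number. The bile duct list runs from 2.20 to 6.22, the mature hepatocyte list from -1.99 to -0.24, and the order of the pairs is the same at its ends for both: GREEN 1 changed least and GREEN 4 most.

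Genes of secreted plasma proteins had calls in both directions. Among coagulation factors 2 of 32 rose and 2 fell (6.25% each, beside 9.68% and 3.22% of all genes, median -0.89): F9 and Vkorc1, the vitamin K epoxide reductase (log2 fold change -0.75 ± 0.22, adjusted p = 0.0387), fell, while F3 (tissue factor), with 3.65, 3.19, 2.68, 1.77 and 3.31 CPM in RED and 5.03, 6.59, 21.0, 29.7 and 22.5 CPM in GREEN (log2 fold change 2.43 ± 0.37, adjusted p = 0.00113), and Plat, the tissue plasminogen activator, rose (log2 fold change 1.96 ± 0.56, adjusted p = 0.0375). Among complement genes 1 of 29 rose and 5 (17.2%) fell (median -0.82). C8g (log2 fold change -0.98 ± 0.27, adjusted p = 0.0348) and C4bp (log2 fold change -0.95 ± 0.28, adjusted p = 0.0378) fell the most, beside Cfi, C1ra (adjusted p = 0.0531 with the code block) and Masp1. The complement list had from 1 (without RED 1, GREEN 3, GREEN 4 or GREEN 5) to 12 (without GREEN 1) genes lower, with counts of 2 to 3 without RED 4, RED 5, CTL 1 or CTL 5. Clu, clusterin, a complement inhibitor and chaperone that duct cells also make, had 1867, 1365, 1032, 1505 and 1244 CPM in RED and 1613, 1852, 4271, 9188 and 4956 CPM in GREEN (log2 fold change 1.51 ± 0.39, adjusted p = 0.0248). Among apolipoproteins and lipoprotein genes 0 of 31 rose and 5 (16.1%) fell (median -0.86), among them Apoc3 (log2 fold change -0.95 ± 0.26, adjusted p = 0.0331), Mttp, Apom and Apoh. The lipoprotein list had from 0 (without RED 1, RED 4, GREEN 3, GREEN 4 or GREEN 5) to 15 (without GREEN 1) genes lower, with counts of 1 to 9 without RED 5, GREEN 2, CTL 1, CTL 2, CTL 4 or CTL 5, and 9 lower with the code block. The coagulation list had 1 gene higher without RED 1, RED 2, RED 3, GREEN 3, GREEN 4, GREEN 5 or CTL 1, and from 0 (without RED 1, RED 2, GREEN 3, GREEN 4 or GREEN 5) to 22 (without GREEN 1) genes lower, with counts of 1 to 13 without RED 5, GREEN 2, CTL 4 or CTL 5, and 15 lower with the code block. In DESeq2 22 coagulation, 12 complement and 15 lipoprotein genes fell, in limma-voom 19, 8 and 10, and by library totals 1, 0 and 2. Acute phase genes had 1 of 33 higher and 0 lower (median -0.73), shares below those of all genes, or 2 and 2 with the code block (by library totals the median was -0.31). The gene that rose was Il1rn, the interleukin-1 receptor antagonist, with 7.09, 9.94, 3.62, 5.23 and 4.24 CPM in RED and 10.1, 10.3, 68.5, 58.1 and 24.2 CPM in GREEN (log2 fold change 2.48 ± 0.58, adjusted p = 0.0144). Each of Vkorc1, Plat, C8g, C4bp, Cfi, C1ra, Clu, Apoc3, Mttp, Apom and Il1rn missed the threshold when at least 1 of the 5 RED samples, GREEN 3, GREEN 4, GREEN 5, CTL 1 and CTL 5 was left out (highest adjusted p by gene 0.0699 to 0.116).

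Detoxification and bile acid genes fell in part. Of 43 conjugation genes, 14 fell (32.6%, beside 3.22% of all genes) and 0 rose (median -0.84), among them Ugt1a6a and glucuronosyltransferases of the Ugt2 and Ugt3 families, whose close copies make single counts uncertain. With 1 library left out, the conjugation list had from 0 to 18 genes lower. The count was 0 without RED 1 or GREEN 5, 2 to 3 without GREEN 3 or GREEN 4 and 5 without RED 4 or RED 5. Sult5a1 had 14, 9.89, 6.04, 11.8 and 8.17 CPM in RED and 7.16, 3.16, 5.94, 2.48 and 3.90 CPM in GREEN (log2 fold change -1.13 ± 0.31, adjusted p = 0.0329). Cytochrome P450 genes had 1 of 44 higher and 4 lower (2.27% and 9.09%, beside 9.68% and 3.22% of all genes, median -0.79). Cyp2a12 had 461, 276, 296, 329.5 and 333 CPM in RED and 231, 247, 153, 104 and 142 CPM in GREEN (log2 fold change -0.97 ± 0.24, adjusted p = 0.0207), without overlap, and Cyp2c70, which makes muricholic acid in mice, had 607, 335, 423, 681 and 763 CPM in RED and 279, 353, 328, 194 and 174 CPM in GREEN (log2 fold change -1.06 ± 0.31, adjusted p = 0.0387). Cyp2s1, an extrahepatic P450 of epithelia, rose (log2 fold change 3.56 ± 0.68, adjusted p = 0.0043). Bile acid synthesis had 0 of 19 higher and 4 (21.1%) lower (median -0.83): Cyp8b1, Cyp2c70, the conjugating enzyme gene Baat and Hsd17b4. The P450 list had from 0 (without GREEN 3 or GREEN 5) to 10 (without GREEN 2) genes lower, with counts of 1 to 9 without RED 1, RED 4, RED 5, GREEN 1 or GREEN 4, and 9 lower with the code block. The bile acid list had from 0 (without GREEN 4 or GREEN 5) to 10 (without GREEN 1 or GREEN 2) genes lower, with counts of 1 to 2 without RED 1, RED 4, RED 5, GREEN 3 or CTL 5, and 8 lower with the code block. Hepatic transporters had 1 of 23 higher and 3 lower (median -0.84). Slc10a1 (NTCP), the main uptake carrier of bile acids, had 502, 237, 245, 222 and 290.2 CPM in RED and 187, 199, 111, 88.8 and 141 CPM in GREEN (log2 fold change -0.99 ± 0.28, adjusted p = 0.0366), and Slc22a30 and Slco2b1 fell too. The transporter list had from 0 (without RED 1, RED 5, GREEN 3, GREEN 4 or GREEN 5) to 9 (without GREEN 1) genes lower, with counts of 1 to 6 without RED 2, RED 3, GREEN 2 or CTL 5, and 7 lower with the code block. By library totals 5 conjugation, 1 P450, 2 bile acid and 1 transporter genes fell, with medians of -0.43, -0.44, -0.42 and -0.45, and in DESeq2 20, 11, 11 and 9 did. Abcb1a, an efflux pump of drugs, had 6.28, 4.44, 7.78, 3.11 and 3.11 CPM in RED and 10.03, 17.3, 35.5, 65.7 and 57.6 CPM in GREEN (log2 fold change 2.78 ± 0.72, adjusted p = 0.0245). Ugt1a6a, Cyp2a12, Cyp2c70, Baat, Hsd17b4, Slc10a1, Slc22a30, Slco2b1 and Abcb1a each lost the call without 1 or more of the 5 RED samples, GREEN 3, GREEN 4, GREEN 5, CTL 1, CTL 2, CTL 4 and CTL 5 (highest adjusted p by gene 0.0609 to 0.128).

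Zonation genes, which mark positions between the portal tract and the central vein, passed the edgeR test in few cases. Of 39 pericentral genes (median -0.52), 0 passed in edgeR (6 at an unadjusted p under 0.05), 5 in DESeq2 and 2 in limma-voom, and 4 fell with the code block, Blvrb among them (adjusted p = 0.048). Glul, the glutamine synthetase of the innermost pericentral cells, had 259.9, 124, 267, 237 and 357 CPM in RED and 153, 245, 199, 192 and 246 CPM in GREEN (log2 fold change -0.23 ± 0.28, adjusted p = 0.608), and Cyp2e1, a pericentral P450, had a log2 fold change of -0.74 ± 0.54 (adjusted p = 0.373). Blvrb, a biliverdin reductase, had the smallest p of the list (log2 fold change -0.52 ± 0.17, adjusted p = 0.0512). Of 38 periportal genes, 1 rose and 4 fell (median -0.87). Cdh1 (E-cadherin), which duct cells share, rose (log2 fold change 1.48 ± 0.44, adjusted p = 0.0425). Hsd17b13, a lipid droplet enzyme, had 426, 188, 241, 238 and 496 CPM in RED and 151, 215, 109, 145 and 126 CPM in GREEN (log2 fold change -1.02 ± 0.30, adjusted p = 0.0401), and Serpinf1, a secreted serpin, fell (log2 fold change -0.86 ± 0.27, adjusted p = 0.0489). The periportal list had from 0 (without RED 1, GREEN 4 or GREEN 5) to 12 (without GREEN 1) genes lower, with counts of 1 to 2 without RED 3, RED 4, RED 5, GREEN 3, CTL 4 or CTL 5. Cyp2f2 (-1.16 ± 0.39, adjusted p = 0.0656) and the urea cycle gene Cps1 (-1.05 ± 0.42, adjusted p = 0.105) did not pass. Leaving out 1 or more of RED 1, RED 3, RED 4, RED 5, GREEN 3, GREEN 4, GREEN 5, CTL 1, CTL 2, CTL 4 and CTL 5, singly, ended the calls of Cdh1, Hsd17b13 and Serpinf1 (highest adjusted p by gene 0.118 to 0.123).

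In energy metabolism, the list of gluconeogenesis, glycogen and glycolysis had calls in both directions. Of its 40 genes, 4 rose and 8 fell (median -0.64), beside 9.68% and 3.22% of all genes. The share higher was thus close to that of all genes, and only the share lower lay well above it. By library totals 8 genes of the list were higher and 1 was lower, so the split depended on the scaling. Pfkp, the platelet isozyme of phosphofructokinase, had 3.31, 5.11, 3.09, 5.59 and 10.8 CPM in RED and 8.77, 8.27, 31.0, 36.0 and 30.1 CPM in GREEN (log2 fold change 1.99 ± 0.46, adjusted p = 0.0144), and Eno2, the neuronal enolase, rose from a low level (log2 fold change 1.83 ± 0.53, adjusted p = 0.0398). The glucose transporter gene Slc2a1 and the mitochondrial Pck2 rose. Pygl, the liver glycogen phosphorylase, had 552, 387, 452, 392 and 397 CPM in RED and 330.3, 385, 204, 149.9 and 176 CPM in GREEN (log2 fold change -0.84 ± 0.24, adjusted p = 0.0366), and Pfkfb1, the liver bifunctional enzyme, fell (log2 fold change -0.98 ± 0.28, adjusted p = 0.0391). For Pygl and Pfkfb1 all GREEN samples were below all RED samples. This list had 0 genes higher without RED 1, GREEN 3 or GREEN 4, 1 without GREEN 5 and 2 without RED 2, RED 4 or RED 5, and from 0 (without RED 1, GREEN 3, GREEN 4 or GREEN 5) to 14 (without GREEN 2) genes lower, with counts of 3 to 13 without RED 3, RED 4, RED 5, GREEN 1 or CTL 5. The calls of Pfkp, Eno2, Slc2a1, Pck2, Pygl and Pfkfb1 each rested on 1 or more of the 5 RED samples, GREEN 3, GREEN 4, GREEN 5, CTL 1 and CTL 5, without which the highest adjusted p by gene was 0.0629 to 0.124.

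Mitochondrial and peroxisomal genes fell in part. Nuclear genes of oxidative phosphorylation had 13 of 40 members lower (32.5%, beside 3.22% of all genes) and 0 higher (median -0.55), and all 40 had a log2 fold change below 0. Sdhd, a subunit of succinate dehydrogenase, had 288, 119.7, 123, 110.4 and 171 CPM in RED and 99.8, 110.0, 70.9, 92.2 and 110.1 CPM in GREEN (log2 fold change -0.66 ± 0.19, adjusted p = 0.0392), and Cycs, cytochrome c, had a log2 fold change of -0.64 ± 0.18 (adjusted p = 0.0322). This list had from 0 (without RED 1, GREEN 3, GREEN 4 or GREEN 5) to 34 (without GREEN 2) genes lower, with counts of 2 to 22 without RED 3, RED 4, RED 5, GREEN 1, CTL 1, CTL 4 or CTL 5. Of 13 genes encoded in the mitochondrial genome (median -0.61), 0 passed in edgeR (7 at an unadjusted p under 0.05), 8 in DESeq2 and 0 in limma-voom, with mt-Nd3 nearest (log2 fold change -0.58 ± 0.23, adjusted p = 0.102). By library totals no gene of either list passed, and their medians were -0.12 and -0.21. Peroxisomal genes had 8 of 33 lower (24.2%) and 0 higher (median -0.59). Cat, catalase, had 3233, 1835, 1914, 1877 and 1943 CPM in RED and 1469, 1636, 1009, 832 and 1073 CPM in GREEN (log2 fold change -0.84 ± 0.25, adjusted p = 0.0453). Hao1, the glycolate oxidase of hepatocyte peroxisomes, had 223, 158, 131, 162 and 185 CPM in RED and 128, 114, 77.2, 55.3 and 62.2 CPM in GREEN (log2 fold change -1.001 ± 0.29, adjusted p = 0.0408). The peroxisome list had from 0 (without RED 1, GREEN 3, GREEN 4 or GREEN 5) to 21 (without GREEN 1) genes lower, with counts of 2 to 20 without RED 2, RED 3, RED 5, GREEN 2, CTL 1, CTL 4 or CTL 5, and 14 lower with the code block. Fatty acid oxidation had 2 of 36 lower (median -0.71; Acaa2, log2 fold change -0.80 ± 0.25, adjusted p = 0.0463, and Hsd17b4, log2 fold change -0.75 ± 0.22, adjusted p = 0.0417). Lipogenesis had 2 of 38 lower (median -0.63; Cideb, log2 fold change -0.83 ± 0.22, adjusted p = 0.0278, and Gpam, log2 fold change -0.64 ± 0.19, adjusted p = 0.0415) and cholesterol synthesis 2 of 26 (median -0.65; Insig1, log2 fold change -0.88 ± 0.26, adjusted p = 0.04, and Ebp, log2 fold change -0.80 ± 0.24, adjusted p = 0.0441). The urea cycle and amino acid list had 2 of 46 lower (median -0.84; Agxt2, log2 fold change -0.89 ± 0.26, adjusted p = 0.0387, and Got2, log2 fold change -0.75 ± 0.23, adjusted p = 0.0465). The shares lower in these 4 lists were 5.56%, 5.26%, 7.69% and 4.35%, on 2 calls each, too near the 3.22% of all genes to be read as a result about the lists. No gene of them rose, and with the code block 4, 6, 8 and 10 members fell, in this order, and in DESeq2 12, 8, 5 and 13. By library totals no gene of the peroxisome list or of these 4 lists fell, and their medians were -0.19, -0.29, -0.21, -0.22 and -0.44. With 1 library left out they had 0 to 15, 0 to 8, 0 to 6 and 0 to 15 members lower, with 0 in each list without RED 1, GREEN 4 or GREEN 5 and the most without GREEN 1 (for cholesterol synthesis, without RED 2 or GREEN 2). Without at least 1 of the 5 RED samples, GREEN 3, GREEN 4, GREEN 5 and the 5 CTL samples, left out singly, Sdhd, Cycs, Cat, Hao1, Acaa2, Cideb, Gpam, Insig1, Ebp, Agxt2 and Got2 each missed the threshold (highest adjusted p by gene 0.0748 to 0.116).

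Iron genes had 1 of 31 members higher and 3 lower (3.23% and 9.68%, beside 9.68% and 3.22% of all genes, median -0.58). The iron list had from 1 (without RED 1, GREEN 3, GREEN 4 or GREEN 5) to 9 (without GREEN 1) genes lower, with counts of 5 to 7 without RED 4, GREEN 2 or CTL 3, and 7 lower with the code block. Slc40a1, ferroportin, the iron exporter of macrophages and hepatocytes, had 214, 106, 138, 207 and 238 CPM in RED and 89.5, 96.7, 103, 89.9 and 104 CPM in GREEN (log2 fold change -0.88 ± 0.19, adjusted p = 0.0104), with GREEN samples close together and below every RED sample. Hfe, a regulator of hepcidin, fell (log2 fold change -0.67 ± 0.17, adjusted p = 0.0243), as did Aco1, the cytosolic aconitase that also senses iron. Id1, a target of the bone morphogenetic proteins that control hepcidin, had 9.76, 6.98, 9.82, 10.8 and 8.17 CPM in RED and 15.7, 25.8, 98.5, 112 and 60.7 CPM in GREEN (log2 fold change 2.75 ± 0.71, adjusted p = 0.0247). Each of Hfe, Aco1 and Id1 missed the threshold when at least 1 of RED 1, RED 3, RED 5, GREEN 3, GREEN 4 and GREEN 5 was left out (highest adjusted p by gene 0.0713 to 0.0851).

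Proliferation and repair genes showed few calls. Of 40 cell cycle and mitosis genes (median -0.51, and 38 below 0), 0 passed in edgeR (3 at an unadjusted p under 0.05), 1 in DESeq2 and 0 in limma-voom. Mki67, a marker of cycling cells, had 7.51, 4.52, 51.6, 52.2 and 29.4 CPM in RED and 4.86, 44.9, 32.5, 19.8 and 11.02 CPM in GREEN (log2 fold change -0.35 ± 0.76, adjusted p = 0.792). Cdk1 had 4.16, 2.47, 9.79, 12.7 and 12.8 CPM in RED and 3.54, 8.98, 6.70, 9.56 and 4.04 CPM in GREEN (log2 fold change -0.36 ± 0.43, adjusted p = 0.609). Mki67 spanned 4.52 to 52.2 CPM in RED and 4.86 to 44.9 CPM in GREEN, more than the groups differed. Ccnf had the smallest p of the list (log2 fold change -0.84 ± 0.31, adjusted p = 0.0802). Of 24 G1 cyclins, kinases and E2F factors (median 0.03), 0 passed in edgeR (5 at an unadjusted p under 0.05), 3 in DESeq2 and 0 in limma-voom, with E2f5 nearest (log2 fold change 0.69 ± 0.23, adjusted p = 0.0572; with the code block, 0.048). DNA replication had 2 of 38 higher and 1 lower (5.26% and 2.63%, beside 9.68% and 3.22% of all genes). Pole (log2 fold change 1.24 ± 0.35, adjusted p = 0.0336) and Pola1 (log2 fold change 0.75 ± 0.20, adjusted p = 0.0297), both DNA polymerase subunits, rose. Homologous recombination had 1 of 35 higher, Rbbp8 (CtIP), which starts the resection of DNA breaks, with 8.40, 5.82, 9.41, 9.17 and 9.69 CPM in RED and 6.84, 12.2, 18.02, 32.6 and 24.4 CPM in GREEN (log2 fold change 1.05 ± 0.28, adjusted p = 0.0284). The shares of these lists that rose, 0% to 5.26%, lay below the 9.68% of all genes. Among p53 targets and kinase inhibitors 0 of 36 rose and 1 (2.78%) fell (Perp, log2 fold change -0.61 ± 0.17, adjusted p = 0.0344), shares below those of all genes. Their median was -0.12, and 0.31 by library totals, and with the code block 2 rose and 3 fell. Cdkn1a (p21) had 65.4, 5.66, 15.9, 99.6 and 61.5 CPM in RED and 5.09, 19.4, 65.5, 32.5 and 30.3 CPM in GREEN (log2 fold change -0.74 ± 0.91, adjusted p = 0.618). Pole, Pola1, Rbbp8 and Perp each lost the call without 1 or more of RED 1, RED 2, RED 4, RED 5, GREEN 3, GREEN 4 and GREEN 5 (highest adjusted p by gene 0.0878 to 0.105).

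**Figure D5:**
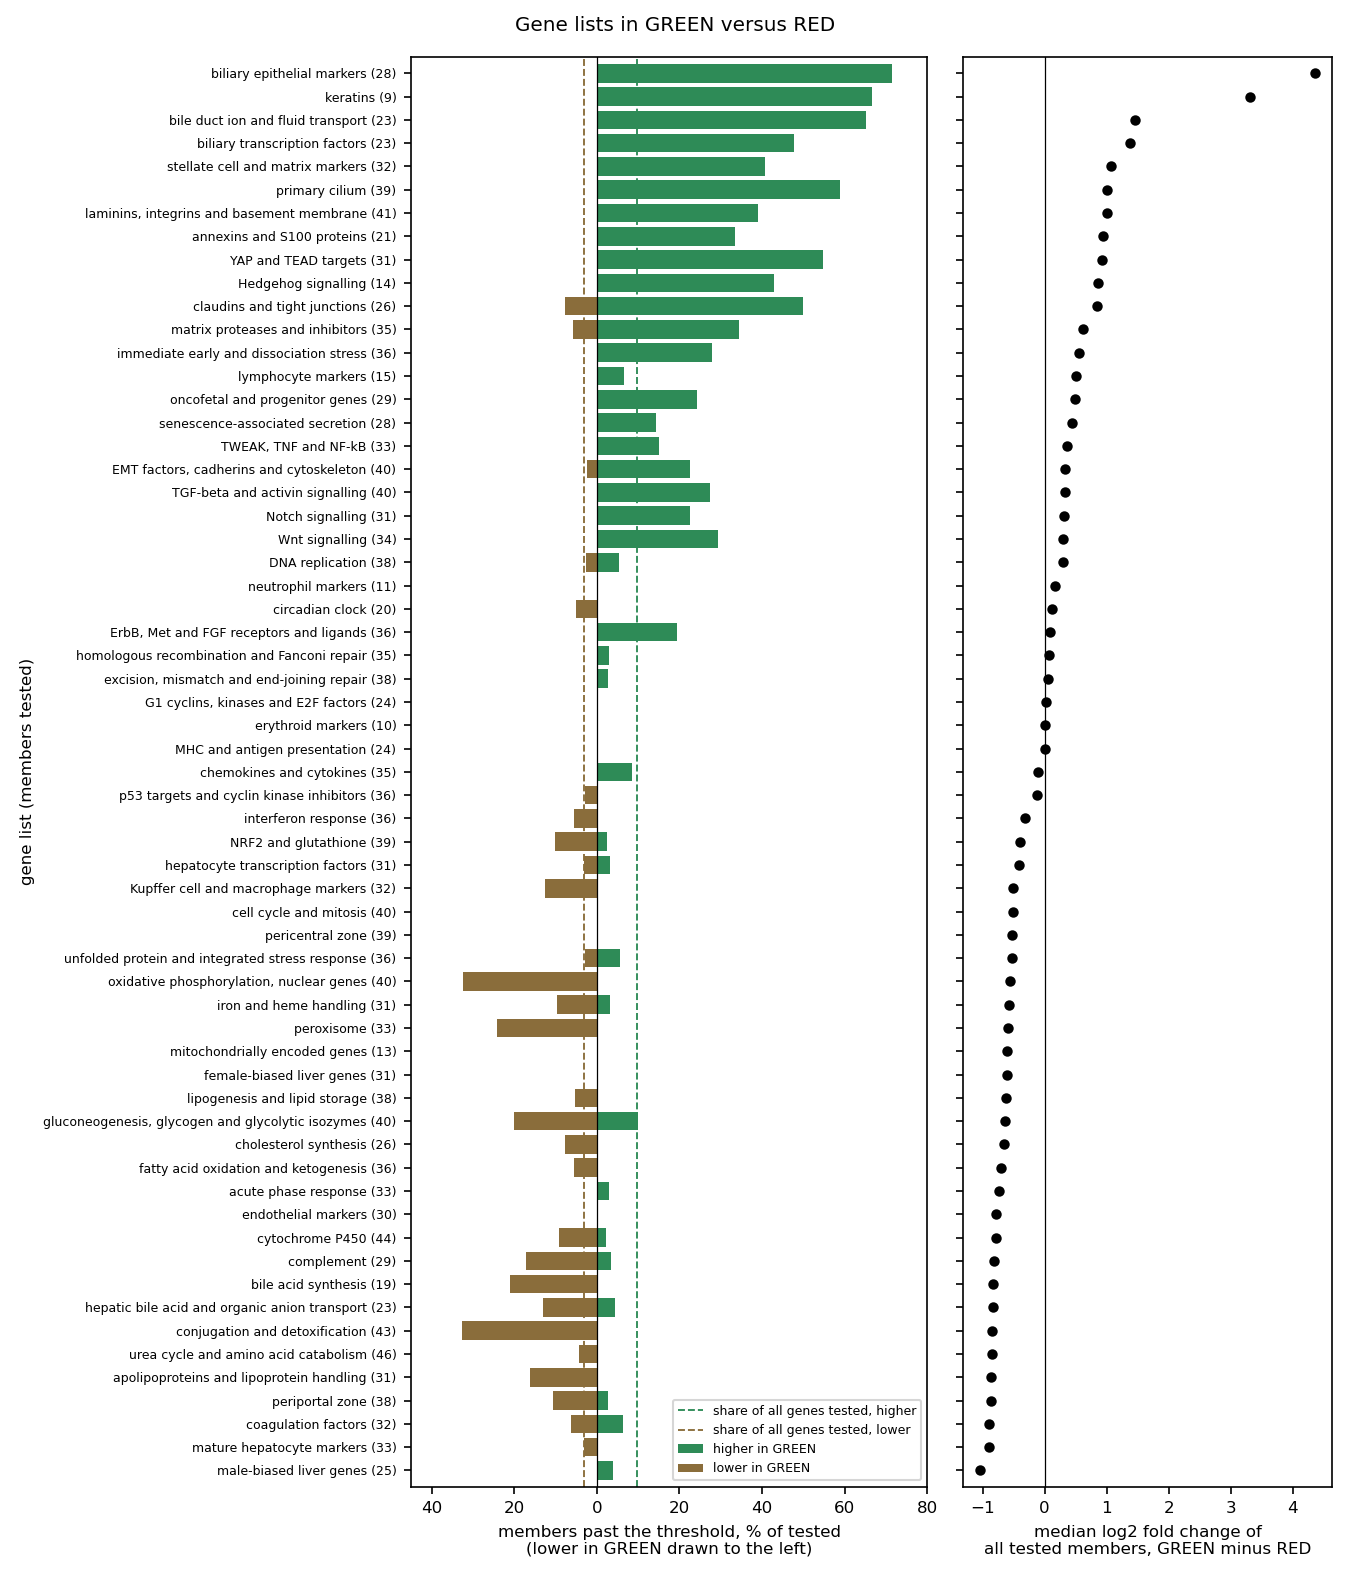
Gene lists (vertical axis, with the number of members tested) by the percentage of members past the threshold (left panel, genes lower in GREEN drawn to the left) and by the median log2 fold change of GREEN minus RED over all tested members (right panel). Dashed lines mark 9.68% and 3.22% of all genes tested, and lists of duct epithelium, matrix and signalling lie above the first line while those of conjugation, oxidative phosphorylation and peroxisomes lie beyond the second.

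Stress and secretion lists were mixed. Immediate early genes, which also respond to cell isolation, had 10 of 36 higher (27.8%, beside 9.68% of all genes) and 0 lower (median 0.56). Atf3 had 318, 111, 101, 99.4 and 186 CPM in RED and 129.6, 325, 426, 505 and 626 CPM in GREEN (log2 fold change 1.35 ± 0.33, adjusted p = 0.0201). Fosl1 had 0.255, 0.182, 0.144, 0.358 and 0.195 CPM in RED and 0.414, 1.43, 2.49, 2.09 and 2.08 CPM in GREEN (log2 fold change 2.84 ± 0.56, adjusted p = 0.00559). Atf3 overlapped between the groups and Fosl1 did not. The immediate early list had 3 genes higher without GREEN 3 or GREEN 5, 5 without RED 1, RED 4 or GREEN 4 and 16 without GREEN 1. Unfolded protein and integrated stress response genes had 2 of 36 higher and 1 lower (median -0.53), or 5 lower with the code block. The shares in edgeR, 5.56% and 2.78%, lay below the 9.68% and 3.22% of all genes. Phgdh, the first enzyme of serine synthesis, had 0.170, 2.18, 0.479, 0.311 and 0.233 CPM in RED and 2.52, 2.27, 8.25, 8.46 and 4.52 CPM in GREEN (log2 fold change 3.48 ± 0.94, adjusted p = 0.0294). The ER degradation gene Edem1 was lower (log2 fold change -0.78 ± 0.23, adjusted p = 0.0405). NRF2 and glutathione genes had 1 of 39 higher and 4 lower (2.56% and 10.3%, beside 9.68% and 3.22% of all genes). Their median was -0.40, and 0.02 by library totals. Gclc and Gclm, the subunits of glutamate-cysteine ligase, fell (log2 fold change -0.74 ± 0.20, adjusted p = 0.033 and log2 fold change -0.58 ± 0.15, adjusted p = 0.0206), and Gpx3, the plasma glutathione peroxidase, rose (log2 fold change 2.19 ± 0.50, adjusted p = 0.013). The NRF2 list had from 0 (without RED 1 or GREEN 5) to 7 (without GREEN 2) genes lower, with counts of 1 to 2 without RED 4, GREEN 3 or GREEN 4, and 3 higher with the code block. Senescence-associated secretion had 4 of 28 higher (14.3%, beside 9.68% of all genes) and 0 lower (median 0.45). The genes that rose were Tgfb2, Lif (log2 fold change 2.61 ± 0.68, adjusted p = 0.0257), Plaur and Igfbp5. The secretion list had 2 genes higher without RED 1, RED 3, RED 4, GREEN 3, GREEN 4 or GREEN 5. Fetal and progenitor genes had 7 of 29 higher (24.1%, beside 9.68% of all genes) and 0 lower (median 0.49), or 2 lower with the code block. Bex1, an adaptor protein gene of the X chromosome, had 0, 0.0519, 0.0239, 0.0239 and 0.0389 CPM in RED and 0.455, 1.43, 6.20, 11.5 and 4.01 CPM in GREEN (log2 fold change 6.95 ± 0.96, adjusted p = 0.00158). Afp, the fetal plasma protein, had 5.30, 6.08, 5.32, 3.06 and 4.47 CPM in RED and 3.62, 3.67, 1.403, 3.08 and 2.38 CPM in GREEN and did not pass (log2 fold change -0.77 ± 0.28, adjusted p = 0.0783; with the code block, 0.019). Leaving out 1 or more of the 5 RED samples, GREEN 3, GREEN 4, GREEN 5, CTL 1, CTL 3 and CTL 5, singly, ended the calls of Atf3, Phgdh, Edem1, Gclc, Gclm, Gpx3, Lif and Igfbp5 (highest adjusted p by gene 0.0582 to 0.139).

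Immune signals changed little in number. Chemokines and cytokines had 3 of 35 higher (8.57%, beside 9.68% of all genes) and 0 lower (median -0.11, and 0.34 by library totals). The chemokine list had 1 gene higher without GREEN 3 and 5 without RED 2 or GREEN 1, and 5 higher and 2 lower with the code block. Cx3cl1 (fractalkine), a membrane-tethered chemokine, had 0.764, 0.441, 0.719, 1.91 and 2.96 CPM in RED and 4.24, 7.37, 22.4, 26.3 and 31.7 CPM in GREEN (log2 fold change 3.66 ± 0.55, adjusted p = 0.00101), without overlap. Interferon response genes had 0 of 36 higher and 2 lower (median -0.32, and 0.12 by library totals), Iigp1 (log2 fold change -0.93 ± 0.25, adjusted p = 0.0288) and Bst2 (log2 fold change -0.87 ± 0.27, adjusted p = 0.0476). The share lower, 5.56% on 2 calls, is too near the 3.22% of all genes to be read as a result about the list. Of 24 genes of antigen presentation (median 0.00), 0 passed in edgeR (3 at an unadjusted p under 0.05), 3 in DESeq2 and 2 in limma-voom. Cd74, the invariant chain, had a log2 fold change of 0.78 ± 0.63 (adjusted p = 0.432), and H2-T23 had the smallest p (log2 fold change -0.62 ± 0.21, adjusted p = 0.0613). Circadian clock genes had 0 of 20 higher and 1 lower (5.0%, beside 3.22% of all genes). The gene that fell was Clock itself (log2 fold change -0.39 ± 0.10, adjusted p = 0.0298). By library totals Clock had a log2 fold change of 0.0584 (adjusted p = 0.765). The calls of Iigp1, Bst2 and Clock each rested on 1 or more of RED 1, RED 4, RED 5, GREEN 1, GREEN 3, GREEN 4, GREEN 5, CTL 4 and CTL 5, without which the highest adjusted p by gene was 0.0605 to 0.125.

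Markers of other liver cells were read beside these results. Kupffer cell and macrophage markers had 0 of 32 higher and 4 lower (12.5%, beside 3.22% of all genes, median -0.51): Marco, Vsig4, Timd4 and Cd5l, all genes of resident macrophages. Vsig4, a complement receptor, had 36.6, 6.54, 14.3, 39.97 and 89.6 CPM in RED and 4.05, 4.49, 12.6, 22.4 and 9.18 CPM in GREEN (log2 fold change -1.75 ± 0.54, adjusted p = 0.0472), beside 3.31 ± 1.29 CPM (SD, n = 5) in CTL. Marco, a scavenger receptor, had 52.9, 2.88, 9.05, 19.1 and 103 CPM in RED and 2.96, 2.94, 6.37, 18.1 and 14.4 CPM in GREEN (log2 fold change -1.78 ± 0.53, adjusted p = 0.042). Both overlapped between the groups, with RED 5 the highest sample. Cd5l had 121, 26.0, 58.2, 159 and 307 CPM in RED and 21.8, 21.8, 54.1, 60.6 and 35.5 CPM in GREEN (log2 fold change -1.71 ± 0.53, adjusted p = 0.0472), and Clec4f, the Kupffer cell lectin, did not pass (log2 fold change -1.73 ± 0.58, adjusted p = 0.0644; with the code block, 0.0396). The macrophage list had 0 genes lower without RED 1, RED 4, RED 5, GREEN 2, GREEN 3, GREEN 4 or GREEN 5, 1 without GREEN 1 and 2 without CTL 5. It had 4 higher and 6 lower with the code block, the same numbers in DESeq2, and 2 higher and 3 lower in limma-voom. By library totals 4 were higher and 0 lower (median -0.04), so the direction of this list depended on the scaling. Summed over the list, macrophage RNA was 269.3 to 2712 CPM in RED and 332.8 to 1131 CPM in GREEN. All 30 endothelial markers had a log2 fold change below 0 (median -0.78, and -0.34 by library totals), 0 passed in edgeR (3 at an unadjusted p under 0.05), 0 in DESeq2 and 0 in limma-voom, and the pair GREEN 1 against RED 2 had a median of 0.26 where the others had -2.56 to -0.58. Pecam1 had 20.5, 23.6, 36.7, 59.3 and 111 CPM in RED and 23.6, 52.7, 37.7, 51.1 and 20.6 CPM in GREEN (log2 fold change -0.47 ± 0.52, adjusted p = 0.574). Ptprc, the common leukocyte antigen, had a log2 fold change of -0.38 ± 0.45 (adjusted p = 0.597). Of 15 lymphocyte markers, Ltb alone rose (6.67%, beside 9.68% of all genes). Of 11 neutrophil markers, 0 passed in edgeR (1 at an unadjusted p under 0.05), 0 in DESeq2 and 0 in limma-voom, and Ltf was nearest (log2 fold change 1.32 ± 0.61, adjusted p = 0.155). Of 10 erythroid markers, 0 passed in edgeR (1 at an unadjusted p under 0.05), 0 in DESeq2 and 0 in limma-voom, and Tfrc was nearest (log2 fold change -0.51 ± 0.23, adjusted p = 0.152). Leaving out RED 1, RED 4, RED 5 or any 1 GREEN sample ended the call of Marco (highest adjusted p 0.113).

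Genes that differ between the sexes in mouse liver were read because Y-linked RNA was uneven over the samples. Of 25 male-biased genes 1 rose (4.0%, beside 9.68% of all genes) and 0 fell (median -1.04). The gene that rose was Oxct1, with 3.23, 2.10, 4.93, 7.88 and 11.1 CPM in RED and 6.66, 10.96, 31.1, 43.1 and 29.2 CPM in GREEN (log2 fold change 1.98 ± 0.48, adjusted p = 0.0171). Of 31 female-biased genes (median -0.61), 0 passed in edgeR (1 at an unadjusted p under 0.05), 1 in DESeq2 and 1 in limma-voom, with Fmo2 nearest, at 8.06, 3.01, 13.6, 2.13 and 3.54 CPM in RED and 18.3, 37.5, 67.1, 148 and 130.0 CPM in GREEN (log2 fold change 3.39 ± 1.25, adjusted p = 0.0848). In the pair GREEN 5 against RED 5, which differed in Y-linked RNA, the median of the male-biased list was -3.19 and that of the female-biased list 0.86. The other 4 pairs had -2.001 to -0.27 and -1.49 to -0.26. The part of sex in single genes was not tested. Without RED 1, GREEN 3 or GREEN 4, Oxct1 missed the threshold (highest adjusted p 0.075).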

How the data were processed

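RNA was measured in 15 mouse samples through 19 libraries of 2 experiments. The authors deposited 1 table per experiment of estimated counts per gene, not normalized. kallisto 0.43.1 and GRCm38 are named in the submitters' processing notes, and the sources used here do not give the annotation release, the summing of transcripts to genes, the filters or the use of strand. Overlapping genes, antisense genes and close copies (Ugt1a, Ugt2, Serpina1, Mup and Ces families) are therefore uncertain. Of 35274 gene identifiers, 34924 (99.0%) had an entry in the annotation, which gave symbols and coordinates.

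One library per sample entered the comparison. The estimated counts were rounded to whole numbers for every tool. edgeR 4.0.16 (R 4.3.3) was run with its default filter on low counts, TMM factors, and group (CTL, RED, GREEN) and experiment as terms. Its quasi-likelihood test was used with Benjamini-Hochberg adjustment over all genes tested and a threshold of 0.05. CPM are estimated counts per 1000000 counts of a library, with TMM factors over the 15 libraries. Within-pair differences are of log2 CPM (prior count 2) over the 19 libraries, for 5 within-experiment pairs. Total estimated counts ran from 26163553 to 44177627 over the 15 libraries, and levels near the floor of 3 counts are imprecise. DESeq2 1.42.0, limma-voom (limma 3.58.1), other scalings, no filter, single experiments, the other libraries of repeated samples, code blocks and libraries left out were alternatives. The analysis was tested on simulated data.

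The text names the 12 genes with the largest change in each direction (protein-coding, past the threshold, at least 2 CPM on average, the same sign in all 5 pairs), a fixed set of marker genes, and from each list up to 2 called genes in each direction or, with none called, the gene with the smallest p. Other genes named were chosen after their values were seen, and some genes that the rule names are not reported here. The samples, lists and rules were chosen with earlier results of these data known, and lists are described by counts and medians without a test of their own. No source says that samples of a group came from separate animals, so p-values measure only the spread between these samples. Equal numbers in the 16w library codes paired RED with GREEN in experiment 2: deviations from the group means over 8435 genes correlated at 0.83, 0.83 and 0.80 between libraries of equal number and at -0.60 to -0.10 between others. Such deviations cancel within a group, so the values between others are not independent of those of equal number. The check was not run for the pairs of experiment 1. Upstream windows were taken from RefSeq (GRCm38.p6), and 11927 tested genes had one.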

Additional observations from a re-analysis of the deposited data

Results flagged for a closer look

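For 39 named genes, 1 sample of RED or GREEN lay far from the other 4, by Dixon's criterion at the 95% level. Of 434 combinations of a gene and a group examined, 39 (8.99%) met it. The criterion marks about 1 in 20 by chance only for independent, normally distributed values. These CPM were not on a log scale and the genes share the same libraries, so the rates cannot be compared. In each case the outlying sample was the highest of its group. RED 1 was the outlying sample for 12 genes, most of them genes of hepatocyte enzymes and plasma proteins, at CPM of Acaa2 (871), Aco1 (289), Apoh (2213), C8g (463), Cat (3233), Cfi (1088), Cideb (249), Gclm (189.5), Got2 (773), Hsd17b4 (482), Slc10a1 (502) and Wfdc21 (493). RED 5 was the outlying sample for 13 genes expressed in at least 1 other RED library, many of them low in RED and higher in GREEN. It had CPM of Ankrd1 (1.28), Bambi (5.76), Cldn10 (0.156), Cldn4 (0.545), Cldn8 (0.156), Gpx3 (9.88), Hbegf (20.7), Ift81 (4.08) and Igfbp5 (15.99), and of Krt80 (0.545), Ltb (0.350), Ltf (1.83) and Ugt8a (0.195). RED 5 was also the highest RED sample of the macrophage genes Vsig4, Marco and Cd5l, and the part of macrophage RNA in these values was not tested. RED 4 was outlying for Col4a6 (1.505) and Krt18 (566), RED 2 for Krt23 (1.402) and Phgdh (2.18) and RED 3 for Tead1 (48.7) (CPM). For 6 genes the other RED libraries were at 0, save RED 3 for Krt17, and the outlying value rests on few counts: BC067074 in RED 5 (0.0389), Gal3st2 in RED 4 (0.0478), Gli2 in RED 4 (0.119), Krt17 in RED 5 (0.389), Pof1b in RED 4 (0.0239) and Wnt7b in RED 5 (0.0778) CPM. In GREEN, GREEN 3 was outlying for Itgav (142), an integrin chain, and GREEN 5 for Krt20 (1.61) and Ltbp2 (129.6) (CPM).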

How the results depend on the processing

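The number of genes past the threshold, 2114, moved by over 1.5 times with several choices. It was 4329 (4289 higher, 40 lower) with library totals, 3822 with DESeq2 (1564 of them lower), and 1283 (94 lower) with CTL left out. By limma-voom 822 genes were lower, and with no filter on low counts 287. Experiment 1 alone, with its libraries of all 5 RED samples, gave 5351 genes (3062 higher, 2289 lower) and experiment 2 alone 77 (76 higher, 1 lower). With the experiment 1 libraries of the repeated samples the count was 4141 (2403 higher, 1738 lower). Leaving out both GREEN 4 and GREEN 5 gave 268, of which 268 were higher and 0 lower, and leaving out GREEN 3 too gave 52 (51 higher, 1 lower). With 1 library left out, the counts ran from 866 to 3515 in all, from 775 to 2177 higher and from 41 to 1338 lower. With the replicate block 967 genes were lower, with the block and CTL left out 1305 passed (67 lower), with the 5 within-experiment pairs as a block 74 were lower, and without that block 180, a fit chosen after seeing the data. In experiment 2 alone with CTL left out, the block gave 857 (850 higher, 7 lower), and without it, also chosen after seeing the data, 0 passed in any direction in edgeR, the tool run for it, with 1336 at an unadjusted p under 0.05. Beside the results given with their blocked value in the text, the code block changed no other call of a named gene. Of 1668 genes of the lists tested, 324 passed. That count was 579 with DESeq2, 203 with CTL left out, 742 and 21 in experiments 1 and 2 alone, 611 with the experiment 1 libraries, 57 with GREEN 4 and GREEN 5 omitted and 20 with GREEN 3 omitted too. In experiment 2 without CTL it was 160 with the block and 0 without, and with 1 library left out it ran from 145 to 541. The test of a difference between experiments passed for 0 to 4 genes with 1 library left out. By library totals the hepatocyte median of GREEN 4 against RED 4 was -1.15 in place of -1.99. The sign turned under some alternative for 12 named genes, of which Clock had passed the threshold. By library totals the log2 fold changes of Cdk1 (0.0563), Clock (0.0584), Ddx3y (0.0687), Glul (0.18), Mki67 (0.0511) and Ptprc (0.0797) were above 0. With GREEN 3, GREEN 4 and GREEN 5 omitted, Cebpa (0.10) and Cyp2e1 (0.11) were above 0 and Cd74 (-0.46), Krt18 (-0.43) and Krt8 (-0.35) below. Ptprc was at 0.12 in experiment 1 alone. With 1 library left out, Ptprc ran from -0.63 to 0.0707, Pecam1 from -0.82 to 0.31 and Ddx3y from -2.17 to 1.03 (0.36 without RED 5). Of 187 called genes named in the text, 185 kept the call in DESeq2, which gave no adjusted p for the other two (Mmp7 and Spp1). By limma-voom 177 kept it, with the code block 182, by library totals 136, without CTL 117 and in experiment 1 alone 182. In experiment 2 alone 20 did, or 82 with the block and 0 without it when CTL was left out, and 46 did with GREEN 4 and GREEN 5 omitted and 21 with GREEN 3 omitted too. The calls that limma-voom ended were those of Bst2, Cd5l, Cdh1, Itga2, Phgdh, Pola1, Pole, Relb, Spp1 and Sufu (adjusted p 0.05 to 0.0975). The causes were not tested, and at RED levels near 0 a few counts set the size of a fold change.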
